A study of Drosophila melanogaster with 3 samples.

Results

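The regions described here are weak regions of chromatin immunoprecipitation followed by sequencing (ChIP-seq) of the Drosophila melanogaster protein CG3838, now named brwl, that lie away from transcription start sites (TSSs). They were selected on 2 properties of the deposited dm6 lists: absence from the thresholded peak list, and a summit more than 500 bp from every annotated TSS. Of 15592 regions in the list made from the pooled replicates, 8868 (56.9%) met both. A further 4485 weak regions had a summit at a promoter, and the thresholded list held 967 peaks outside promoters and 1272 at promoters.

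The chromatin came from whole embryos, male and female together, collected between 0 and 24 h of development. All of them carried a stable transgene that expresses CG3838 with green fluorescent protein (GFP) at its C-terminal end, and the precipitation used an antibody against GFP. There was 1 group with 3 biological replicates, and each was a pool of whole organisms, so that every cell type of the embryo contributed. Sonicated fragments were 200 to 800 bp long. The labels do not name the promoter that drives the transgene, and the control library and embryos without the tagged protein were not analysed here. Binding of the tagged protein and signal from open chromatin or the antibody therefore cannot be told apart.

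A peak caller that is set to report background as well as peaks returns a long ranked list, and the irreproducible discovery rate (IDR) then keeps the top of it according to how well replicates rank regions alike. The regions below that line are a mixture that the procedure does not sort further: sites with low occupancy, open chromatin, and local fluctuations of read coverage can all appear there. In the fly, regions away from promoters include enhancers, which often lie in introns of developmental genes and in first introns especially.

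The sequences of 8 regions are shown because they span the range of replicate support described below. Each runs from 50 bp before to 50 bp after the summit on the forward strand of dm6, taken from the RefSeq copy of that assembly. Capitals mark a match, on either strand, to one of 10 short motifs that were searched in all regions. The first pair are among the strongest intronic regions with an overlapping region in all 3 replicates, in Gug, which encodes an atrophin-family corepressor, at chr3L:8455690-8455790 and in CG43658 at chrX:17510564-17510664. The next pair are among the strongest intergenic ones, nearest to Nlg3, a neuroligin gene, at chr3R:7644485-7644585 and to lncRNA:CR45643 at chr3R:16221710-16221810. The third pair are among the strongest that no replicate's own list overlapped. They lie nearest to COX7AL2, of the cytochrome c oxidase 7A family, at chr2L:2200368-2200468 and in an intron of mtgo at chr2L:16568656-16568756. The last pair were added after their values were seen. One is in coding sequence of aqz at chr3R:8818382-8818482, with a region in replicates 1 and 2 only, and the other is in an intron of pyd, the gene of a cell junction protein of the ZO-1 family, at chr3R:8867921-8868021, with a region in replicate 3 only.
Gug intron: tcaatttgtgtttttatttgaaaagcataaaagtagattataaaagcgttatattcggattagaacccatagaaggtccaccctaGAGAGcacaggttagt
CG43658 intron: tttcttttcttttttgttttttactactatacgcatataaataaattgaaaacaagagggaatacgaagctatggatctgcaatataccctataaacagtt
near Nlg3: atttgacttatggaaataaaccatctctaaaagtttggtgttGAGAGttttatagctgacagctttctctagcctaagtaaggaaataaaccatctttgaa
near lncRNA:CR45643: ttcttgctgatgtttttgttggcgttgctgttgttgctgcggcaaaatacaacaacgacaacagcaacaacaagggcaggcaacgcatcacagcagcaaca
near COX7AL2: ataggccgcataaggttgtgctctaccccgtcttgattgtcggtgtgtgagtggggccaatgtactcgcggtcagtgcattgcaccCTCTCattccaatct
mtgo intron: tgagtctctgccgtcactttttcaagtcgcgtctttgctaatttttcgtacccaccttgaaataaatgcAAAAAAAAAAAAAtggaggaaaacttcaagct
aqz coding exon: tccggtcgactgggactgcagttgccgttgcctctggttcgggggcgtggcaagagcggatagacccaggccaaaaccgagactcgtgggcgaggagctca
pyd intron: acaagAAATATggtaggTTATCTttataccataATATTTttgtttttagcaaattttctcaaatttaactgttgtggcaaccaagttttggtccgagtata

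The word GAGAG, a core of GAGA factor sites that reads CTCTC on the other strand, is the capitalised match in the Gug, Nlg3 and COX7AL2 windows, and 11.4% of all windows of that size outside promoters hold it. The mtgo window holds a run of A, as do 5.46% of such windows. The pyd window holds AAATAT (17.4% of such windows) on both strands and a GATA site (16.6%). The GC content was 64.4% in the aqz window and 28.7% in the pyd window. It was 33.7% in the Gug window, 27.7% in CG43658, 32.7% near Nlg3, 47.5% near lncRNA:CR45643, 53.5% near COX7AL2 and 36.6% in mtgo.

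The values used for selection place the regions as follows. Their pooled signal, a value given by the authors' caller with no stated scale, ran from 40.2 to 104 with a median of 49.1 and quartiles of 43.8 and 59.5. The median was 54.9 for weak regions at promoters and 143 for thresholded peaks outside promoters. The deposited −log10 q value had a median of 0.144, and 452 regions (5.10%) had a q-value under 0.05. All but 1 of the 8868 had the same width of 424 bp, so width carries no information.

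The line between weak and thresholded regions falls within a dense run of values. The strongest weak region outside promoters had a signal of 103.530, in the 5′ untranslated region (UTR) of brwl. It was followed by the regions in Gug (103.43) and in Hr3 (103.41), the gene of an ecdysone-induced nuclear receptor whose span here overlaps CG12912 and CG46321. Just above the line, thresholded peaks outside promoters had signals of 103.59 at an intergenic site nearest to lncRNA:CR44513, 103.62 in heph, the gene of a polypyrimidine tract-binding protein, and 103.71 in the zinc transporter gene ZnT63C.

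Replicate 3 stood apart from the other 2 replicates in coding exons, 3′ UTRs, base composition and chromosome 4, as given below, but not in intergenic sequence. The depth of the libraries is unknown, since the lists hold no read counts. The full lists hold 30000 regions for replicates 1 and 2 and 21147 for replicate 3, of which 25 lie outside the chromosome arms. To measure a spread between replicates, each replicate's own list was restricted to ranks 2240 to 15592, the range that the weak regions occupy in the pooled list. Summits more than 500 bp from a TSS were kept, which left 9964, 9023 and 8806 regions in replicates 1, 2 and 3. These replicate-level regions include some that overlap a thresholded pooled peak. Of them 4681, 5160 and 4608 in replicates 1, 2 and 3 overlapped a weak pooled region outside promoters. The others did not, so the spread below is that of each replicate's own weak regions and not of the same places. The replicates share 1 control and the pooled list was made from them, so they are not independent of the pooled list.

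Weak regions outside promoters were most often in introns. Introns held 4821 of them (54.4%, exact Clopper-Pearson 95% interval 53.3% to 55.4%), while they make up 45.1% of the length outside promoter windows, which reach 500 bp to each side of every TSS. The ratio of these shares was 1.21. In the replicates' own weak regions the intronic share was 48.7%, 53.3% and 57.0%, and the ratio was 1.08, 1.18 and 1.26, a mean of 1.17 ± 0.0923 (SD, n = 3). All 3 replicates lay above 1, with replicate 1 closest to it. The exact sign-flip permutation test of the log2 ratio over replicates, two-sided, gave p = 0.25, which is the smallest that 3 replicates allow. The spread between replicates is therefore the measure used in what follows. Among replicate regions that overlapped a weak pooled region, a subset chosen after seeing the data, the ratios were 1.20, 1.27 and 1.32.

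Intergenic sequence held fewer weak regions than its length, and in this the replicates were closest to each other. The count was 2116 (23.9%, interval 23.0% to 24.8%), against 32.7% of the length, a ratio of 0.730. The replicates gave 0.735, 0.704 and 0.728, a mean of 0.722 ± 0.0162 (SD, n = 3, exact sign-flip permutation p = 0.25), so that the distance from 1 was many times the spread. The density was 54.3 regions per Mb of intergenic sequence and 89.6 per Mb of intron, compared with 74.3 per Mb over the whole length outside promoter windows.

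Coding exons held as many weak regions as their length would give, but the replicates did not share this value. In the pooled list 1365 summits (15.4%) were in coding exons, which make up 15.6% of the length, a ratio of 0.984. The replicates' shares were 22%, 17.6% and 9.54%, with ratios of 1.41, 1.12 and 0.610. Replicates 1 and 2 lay above 1 and replicate 3 below it, and the mean of 1.05 ± 0.405 (SD, n = 3, exact sign-flip permutation p = 1.00) does not differ from 1 beyond the spread. Without replicate 3 the mean ratio was 1.27. Among replicate regions that overlapped a weak pooled region the ratios were 1.04, 0.863 and 0.578, and only replicate 1 lay above 1. Thresholded peaks outside promoters had 9 summits in coding exons, a ratio of 0.0595.

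The 3′ UTR showed the opposite order of replicates. It held 314 weak regions (3.54%), against 4.97% of the length, a ratio of 0.712. The replicates gave 0.579, 0.615 and 1.41, with replicate 3 alone above 1, and a mean of 0.867 ± 0.468 (SD, n = 3, exact sign-flip permutation p = 0.5). Without replicate 3 the mean was 0.597. Among replicate regions that overlapped a weak pooled region the ratios were 0.584, 0.514 and 0.873, all below 1 with replicate 3 still the highest. In the 500 bp around the 3′ ends of protein-coding genes replicate 3 was again the highest, with ratios of 0.894, 0.863 and 1.35.

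The 5′ UTR and non-coding exons were small classes with high density. The 5′ UTR held 133 weak regions (1.50%, against 0.679% of the length), a ratio of 2.21, with 1.80, 2.48 and 1.96 in the replicates (mean 2.08 ± 0.355, SD, n = 3). Non-coding exons held 119, a ratio of 1.42, with 1.22, 1.52 and 1.45 in the replicates (mean 1.40 ± 0.158, SD, n = 3). In both classes every replicate lay above 1 (exact sign-flip permutation p = 0.25 in each).

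**Figure D1:**
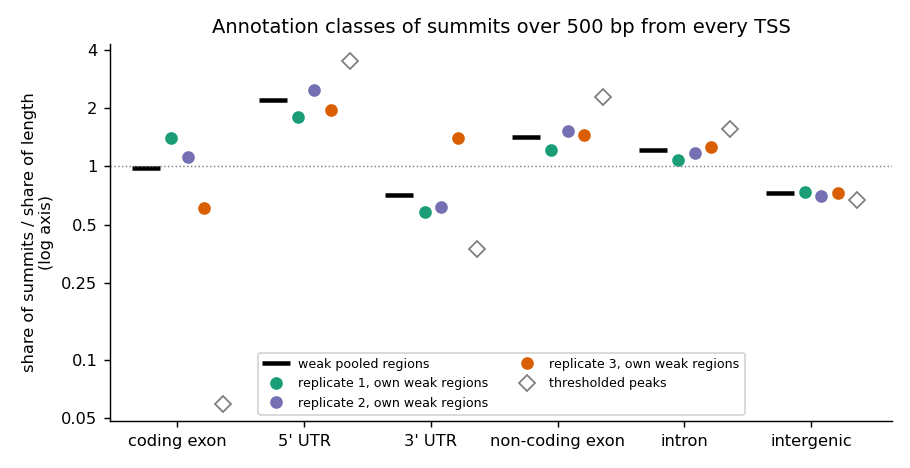
Share of summits in each annotation class divided by the share of that class in the length outside promoter windows, on a log axis; the dashes are the 8868 weak pooled regions, filled points each replicate's own weak regions, and open diamonds the 967 thresholded peaks outside promoters. Introns (1.21) and intergenic sequence (0.730) have close replicates, whereas in coding exons replicate 3 (0.610) lies below the other 2 replicates (1.41 and 1.12) and in the 3′ UTR above them.

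The makeup of the weak regions changed with their strength, although strength was part of the selection and these values are a description. In 5 equal bins of pooled signal, the share in coding exons was 21.6% in the weakest bin, then 19.5%, 16.6% and 15%, and 4.23% in the strongest. The intronic share was 48.5% in the weakest bin and 66.3% in the strongest, while the intergenic share stayed between 23.2% and 24.3%. The strongest bin thus came nearest to thresholded peaks outside promoters, of which 70.6% were intronic and 0.931% coding.

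Weak regions lay nearer to TSSs than the sequence outside promoter windows does on average. Their median distance to the nearest TSS was 2728 bp, compared with 4547 bp for the length itself and 2111 bp for thresholded peaks outside promoters. Because the selection removed everything up to 500 bp, only the distances beyond it are described. Between 500 and 1000 bp the ratio was 1.60, with 1.48, 1.61 and 1.66 in the replicates (mean 1.58 ± 0.0913, SD, n = 3). It was 1.38 from 1000 to 2000 bp, 1.14 from 2000 to 5000 bp, 0.986 from 5000 to 10000 bp and 0.786 from 10000 to 20000 bp. Beyond 20000 bp it was 0.185, with 0.240, 0.184 and 0.166 in the replicates. The length used here and for introns includes repeats, where reads may not have been placed, and their part in these ratios was not tested.

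First introns held much of the intronic set. Of the 4821 intronic regions, 3020 (62.6%) lay in the first intron of a transcript, against 43.0% of the intronic length, a ratio of 1.46, with 1.33, 1.44 and 1.44 in the replicates (mean 1.40 ± 0.0594, SD, n = 3). First introns begin near TSSs, and how far this ratio follows from the distances above was not tested. Introns of 1000 to 5000 bp and of 5000 to 20000 bp had ratios of 1.25 and 1.27. Introns of up to 1000 bp had 0.675 and those over 20000 bp had 0.779, below 1 in every replicate (0.800, 0.671 and 0.875 for the short ones, 0.830, 0.790 and 0.726 for the long ones).

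Weak regions were also concentrated around thresholded peaks. A thresholded summit lay within 5000 bp of 2377 weak regions (26.8%), while 11.0% of the length lies that close. In the replicates the share was 23.1%, 26.9% and 29.2% (mean 26.4% ± 3.08, SD, n = 3). The ratio was 2.63 up to 500 bp, 3.20 from 500 to 1000 bp, 2.31 from 1000 to 5000 bp, 1.47 from 5000 to 20000 bp and 0.612 beyond. In all, 190 weak regions overlapped the interval of a thresholded peak, and without them the share within 5000 bp was 25.2%. The replicates exceeded the pooled regions in the closest bin (3.98, 4.37 and 6.40), where their own regions can be the thresholded peaks themselves at a lower rank.

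**Figure D2:**
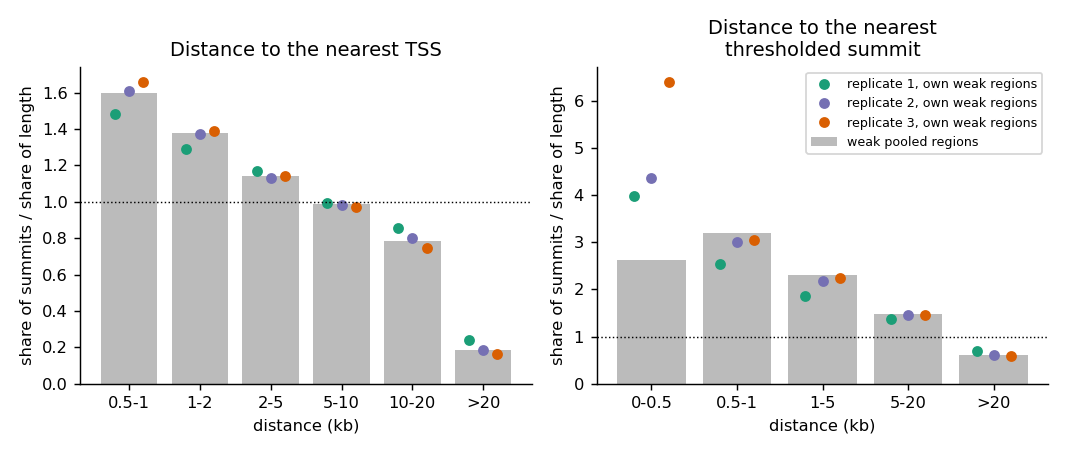
Share of summits divided by share of length, by distance in kb to the nearest TSS (left) and to the nearest thresholded summit (right); bars are the weak pooled regions, points each replicate's own weak regions, and the dotted line marks a ratio of 1. The ratio goes down with distance in both panels beyond 1 kb, from 1.60 to 0.185 for TSSs, and ends at 0.612 for thresholded summits.

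Support by the replicates was broad but shallow. A region of the replicate's full list overlapped 78.1% of weak regions outside promoters in replicate 1, 84.2% in replicate 2 and 65.7% in replicate 3, a mean of 76.0% ± 9.44 (SD, n = 3). All 3 replicates overlapped 3702 of them (41.7%), against a background of 53.9% for pooled regions of every kind. The share was 55.2% for weak regions at promoters and 99.0% for thresholded peaks outside promoters. Both remaining replicates overlapped 54.6% without replicate 1, 50.1% without replicate 2 and 65.3% without replicate 3. A further 3971 were overlapped in 2 replicates, 1164 in 1 and 31 in none. The replicates' lists cover 7.50%, 7.21% and 4.99% of the length outside promoters. As the pooled list was made from the same reads, these overlaps are a description. Of the 194 weak regions within 500 bp of a thresholded summit, 99.0% were overlapped in all 3 replicates. From 500 to 1000 bp the share was 47.7%. A single replicate region can overlap both a weak region and a neighbouring pooled region, and its part in these shares was not tested.

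Among the regions overlapped in exactly 2 replicates, the pair of replicates 1 and 2 was the most frequent, with 2086 regions, with 1141 regions in the pair 2 and 3, and 744 in 1 and 3. The list of replicate 3 is the shortest, and the part of this in the order was not tested. With every replicate list restricted to its strongest 15592 regions, 57.4%, 61.8% and 54.8% were overlapped, and 21.9% in all 3. The matching replicate region was seldom a strong one: its median rank was 9721, 10065 and 8827, and it was among the 2239 strongest of its list in 4.69%, 3.58% and 4.36% of cases. Summits of matching regions lay close together, at a median of 27, 20 and 29 bp from the pooled summit.

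Support rose steeply with pooled signal. That signal was part of the selection and was made from the same replicates, so a rise is built in and is only described. All 3 replicates overlapped 15.6% of the weakest of the 5 signal bins and 83.1% of the strongest. In the weakest bin the replicates overlapped 67.1%, 69.2% and 46.4%, and in the strongest 93.2%, 98.2% and 91.6%, so that replicate 3 was lowest in both bins but by less in the strongest. Over the 3702 regions present in every list, Spearman's rho between replicate signals was 0.371 in the pair of replicates 1 and 2, 0.289 in that of 1 and 3, and 0.353 in that of 2 and 3. These are correlations across regions that share libraries, not across independent samples. Neighbouring weak regions can also take their values from the same replicate region. The summits at 9562466 and 9562704 on 2L, for example, had the same replicate signals (20.2, 26.1 and 26.8). The part of such repeated values in rho was not tested.

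**Figure D3:**
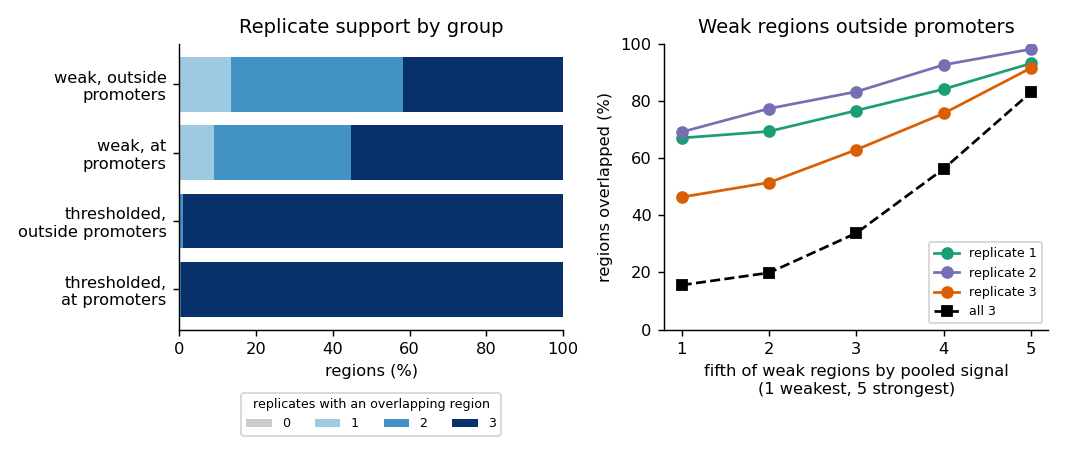
Left, percent of regions in 4 groups of the pooled list that are overlapped by at least 1 bp by regions of 0, 1, 2 or 3 replicate lists; right, percent of weak regions outside promoters overlapped in each replicate (points) and in all 3 (squares), by bin of pooled signal. Weak regions outside promoters have the smallest share in all 3 replicates (41.7%), and this share goes from 15.6% in the weakest bin to 83.1% in the strongest. The pooled signal was made from the same replicates, so this rise is a description.

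The annotation class of a region went together with the replicates that held it. Coding regions were overlapped in 82.6% of cases by replicate 1, in 79.8% by replicate 2 and in 47.3% by replicate 3, and 27.8% were in all 3. Intronic regions gave 77.8%, 85.4% and 69.8%, with 45.8% in all 3, and intergenic ones 77.6%, 84.9% and 66.2%, with 41.7%. Among the 2086 regions found in replicates 1 and 2 only, 24.1% were coding and the mean GC content was 46.0%. Among the 1141 found in replicates 2 and 3 only, 9.29% were coding and the GC content was 39.5%. The 3702 found in all replicates were coding in 10.3% of cases, with a GC content of 40.9%. The aqz and pyd windows shown above are single cases of the first and of the replicate 3 pattern.

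Base composition separated the replicates. In windows reaching 100 bp to each side of the summits, the GC content of weak pooled regions was 42.3%, 0.604 percentage points above windows 1000 bp to each side. The same difference was 2.90 points in replicate 1, 1.66 in replicate 2 and -2.70 in replicate 3, a mean of 0.623 ± 2.94 (SD, n = 3, exact sign-flip permutation p = 0.750), and 2.28 without replicate 3. The pooled regions above the median signal gave -0.250, so over all classes the pooled difference has no stable sign. Within introns alone it was -1.44 points and within intergenic sequence -0.967 points. Coding weak regions had a GC content of 56.5%, and their part in the value over all classes was not tested. For thresholded peaks outside promoters the difference was -3.01 in introns and -2.93 in intergenic sequence. Over all classes it was -2.67, near the value of replicate 3. Within introns alone the GC content of the weak regions was 41.6%, 40.9% and 37.2% in the replicates, and within intergenic sequence 42.9%, 41.7% and 36.9%. Replicate 3 also has the shortest list, and the part of this in the difference was not tested.

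**Figure D4:**
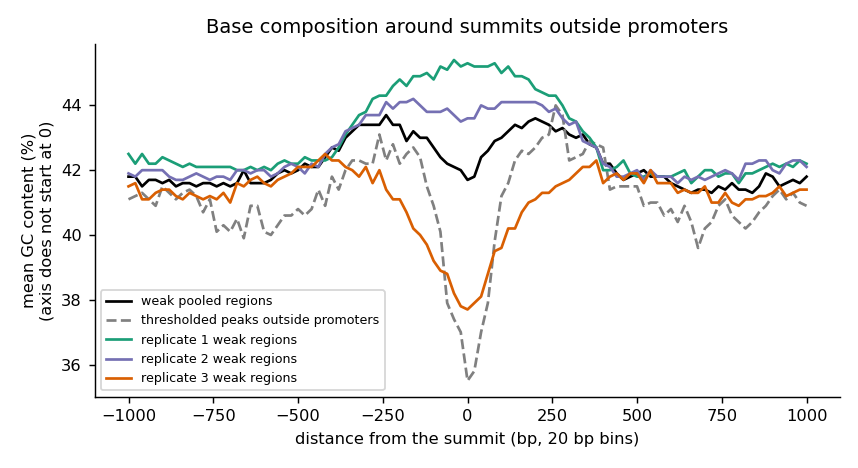
Mean GC content (percent, axis not starting at 0) in 20 bp bins by distance from the summit, for weak pooled regions, each replicate's own weak regions, and thresholded peaks outside promoters. At the summit replicate 1 reaches 45.3% and replicate 2 43.6%, while replicate 3 goes down to 37.7% and thresholded peaks to 35.5%.

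Short motifs were only slightly more frequent at weak summits than beside them. Of 10 motifs, searched on both strands in the same windows, the CA repeat CACACACA had the highest ratio to flanking windows, 1.25 (5% of weak regions against 4.01%; 3.97% of all such windows outside promoters), with 1.22, 1.28 and 0.941 in the replicates. The word AAATAT was in 36.3% against 30.9% (31.0% of all windows), a ratio of 1.18, and the replicates gave 0.953, 1.02 and 1.39. GAGAG was in 23.8% against 20.8% (21.5% of all windows), a ratio of 1.14, with 1.07, 1.20 and 1.01 in the replicates. For the first and second of these words at least 1 replicate lay below 1, so neither ratio holds in every replicate.

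The other motifs were as follows. The E-box CAGCTG, a site for basic helix-loop-helix proteins, was in 9.77% against 8.81% (8.07% of all windows), and it was in 19.8% of coding and 8.15% of intronic regions. The E-box CACGTG was in 2.30% against 2.26% (2.29% of all windows). The core TATCGATA of the DNA replication-related element, a promoter element of housekeeping genes, was in 35 regions, 0.395% against 0.342% (0.409% of all windows). The homeodomain core TAATTA was in 12.8% against 14.1% (12.7% of all windows), a ratio of 0.908, with 0.860, 0.850 and 1.16 in the replicates. A GATA site, GATA preceded by A or T and followed by A or G, was in 32.0% against 31.2% (30.2%), and the run AAAAAAAA in 12.6% against 12.4% (10.6%). The promoter element Motif 1 was in 3 regions (0.0338%, against 0.0274% of all windows). Some of these words can overlap in a window, and a match shows letters only.

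Repeats held few weak regions. Annotated transposable elements make up 6.69% of the length outside promoter windows and held 44 summits (0.496%), a ratio of 0.0742, with 0.0691, 0.0630 and 0.134 in the replicates. Soft-masked sequence, which includes simple repeats, held 1749 (19.7%) against 21.8% of the length. How reads that match several places were treated is not given in the sources used here, so a low value in repeats cannot be told apart from reads that were not placed.

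Along the chromosomes, the arms 2L and 3L had the highest densities, 86.2 and 85.0 weak regions per Mb, and 3R and 2R had 78.6 and 70.8. The X had 62.0 per Mb, a ratio of 0.834, below 1 in each replicate (0.726, 0.835 and 0.848; mean 0.803 ± 0.0670, SD, n = 3). Chromosome 4, which is small and largely heterochromatic, had 54.0 per Mb, and here too replicate 3 differed, with ratios of 0.577, 0.582 and 1.67. The Y held none, nor did it hold any weak region of the replicates. Thresholded peaks outside promoters, in contrast, were not less dense on the X than on the other chromosomes. The embryos were male and female together, and the part of the number of X and Y copies in these densities was not tested. In the 1337 windows of 100000 bp with at least 50000 bp outside promoters, the median was 6 weak regions and the highest count 35. The 172 windows without any had a median of 1 protein-coding gene, compared with 12 in the other windows.

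Weak regions often had a near neighbour. The median distance from a summit to the next weak summit was 2789 bp, and 21.7% of regions had one within 1000 bp, with 17.4%, 21.4% and 23.5% in the replicates (mean 20.8% ± 3.10, SD, n = 3). The 967 thresholded peaks outside promoters gave 9.31%. Such a share rises with the number of regions, and the share expected from density alone was not computed. The sets therefore cannot be ranked by clustering from these shares. Joined at gaps of up to 1000 bp, the weak regions formed 887 chains of 2 or more and 120 of 3 or more.

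The longest chain had 7 summits in 3708 bp of 3R nearest to Gr93a, a gustatory receptor gene, of which 5 were overlapped in all replicates, and a thresholded summit lay 216 bp away. A chain of 6 lay in tara, and chains of 5 lay in the span shared by Mi-2, which encodes a chromatin remodelling ATPase, and the elongation factor gene Su(Tpl), and in that shared by CG5445 and Fim, which encodes the actin-bundling protein fimbrin. A chain of 4 lay in tou, a gene of chromatin remodelling. The replicates' own weak regions in these stretches numbered between 1 and 4, and a replicate reached the pooled number only in tou (4 in replicate 2). The densest windows of 100000 bp, with 35 weak regions each, were on 3L from 11300001 to 11400000, around CG6163, CG6168 and CG7573, with 25, 30 and 31 in the replicates, and on 3R from 16200001 to 16300000, around tara and gish, with 18, 31 and 34.

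The hosts of weak regions were mostly long genes. Of 13092 protein-coding genes with any length outside promoter windows, 2844 (21.7%) held at least 1 weak region, and the replicates' own regions gave 25.6%, 22.8% and 21.4% (mean 23.3% ± 2.12, SD, n = 3). Counting only regions overlapped in both remaining replicates, the share was 13.7% without replicate 1, 13.1% without replicate 2 and 16.2% without replicate 3. In all, 1565 genes held 1, 339 held 5 or more and 100 held 10 or more. Protein-coding spans contained 74.4% of all weak regions, against 65.6% of the length outside promoter windows. Hosts had a median of 8088 bp outside promoter windows and the other genes 1202 bp. The share of hosts went from 5.44% of genes with up to 2000 bp to 85.0% of those with over 50000 bp. Per length the order was different: the density was 6.56 per 100000 bp in the shortest class, 11.2 in genes with 10000 to 20000 bp and 5.98 in the longest.

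The 10 genes with the most weak regions were long, with 33177 to 363391 bp outside promoter windows. First was bun, which encodes transcriptional regulators of the TSC-22 family, with 31 weak regions and 24, 30 and 26 in the replicates' own lists. The homeodomain gene hth, whose product is a cofactor of Hox proteins, had 30 (25, 29 and 24 in the replicates). Eip75B, an ecdysone-induced nuclear receptor gene, had 27 (29, 31 and 31), and kirre, which encodes an adhesion protein of myoblast fusion, had 27 (24, 21 and 32). The counts of these genes overlap between replicates, and their order is not resolved.

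The corepressor gene sbb had 25, the Wnt receptor gene fz2 24, and tara, which encodes a regulator of the SERTAD family, 24. For rdx, whose product directs the transcription factor Ci to a ubiquitin ligase, the count was 23, for pnt, an ETS transcription factor gene of the receptor tyrosine kinase pathway, 21, and for CG46467 20. In tara replicate 1 had 11 regions, fewer than replicates 2 (22) and 3 (20). Of the weak regions in these 10 genes, between 6 (CG46467) and 16 (kirre) per gene were overlapped in all 3 replicates. Neither fz2 nor CG46467 held a thresholded peak outside promoters, whereas Eip75B and sbb held 5 each.

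**Figure D5:**
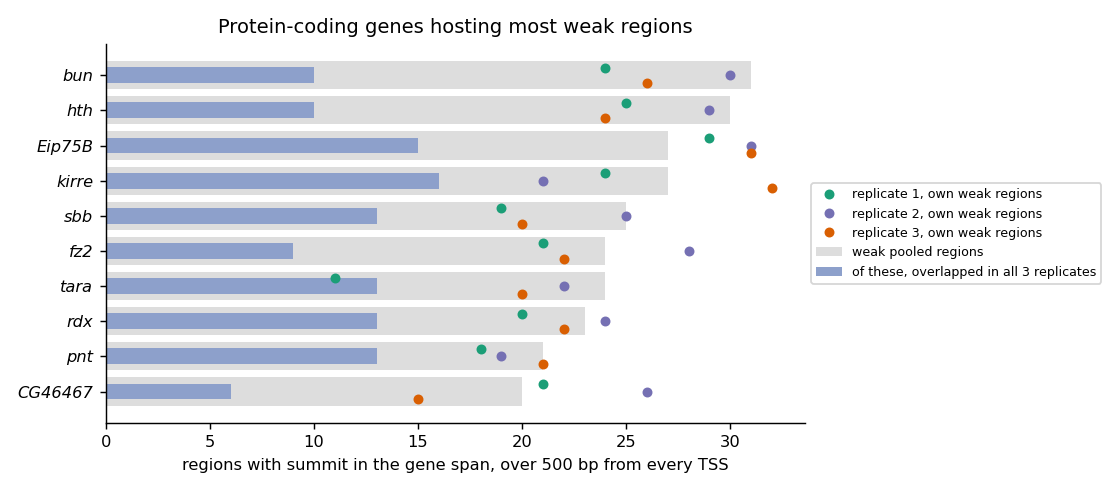
Number of weak regions with a summit in the span of each of the 10 protein-coding genes that host most; grey bars are weak pooled regions, blue bars those overlapped in all 3 replicates, and points the count in each replicate's own weak regions. In kirre, fz2, rdx and CG46467 the replicates lie on both sides of the pooled count, and in tara replicate 1 (11) lies below the other 2 replicates (22 and 20).

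Relative to length, tara led among the 1722 protein-coding genes with at least 10000 bp outside promoter windows. It had 7.23 weak regions per 10000 bp, against a median of 0.729 over these genes. It was followed by CG10939 (6.95), the gene Socs36E of a suppressor of cytokine signalling (5.72), the reticulon gene Rtnl1 (5.69), Pino (5.47), CG31808 (5.40), CG14434 (5.31), CG9328 (5.29), CG6966 (5.21) and Pits (5.18). These densities rest on 6 to 8 regions a gene outside tara. The replicates' counts varied widely in some of them: Rtnl1 had 3, 1 and 7, and Socs36E 2, 4 and 6, while Pino had 5, 8 and 5.

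At the other end, 450 of these 1722 genes held no weak region. Among the longest were Pzl, with 707919 bp outside promoter windows, lovit (432539 bp), CG17684 (394534 bp) and the Y-linked genes Ppr-Y, kl-3 and WDY. Gprk1, a kinase gene of receptor signalling, CG40470, the helicase gene Dbp80 and CG41520 also had none. The replicates' own lists had between 0 and 3 weak regions in each of these genes. The repeat content of these genes was not measured, so a lack of regions cannot be told apart from reads that were not placed.

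Most of the 10 strongest weak regions lay in introns. The strongest, in brwl, lay close to a thresholded summit, and the replicate regions that overlapped it ranked 32, 42 and 673. The second, in Gug, was 200 bp from a thresholded summit, and ranked 3268, 2350 and 801 in the replicates. Others lay in psq, which encodes a BTB protein that binds DNA, in CG43658, in Svil, the supervillin gene, and in the integrin gene mew. The region in RapGAP1, a gene of a Rap GTPase-activating protein, was overlapped in replicates 2 and 3 but not in 1. The intergenic region nearest to Nlg3 was far from any thresholded summit, at 138085 bp, and it ranked 9548, 1498 and 4518 in the replicates.

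The tagged gene brwl (FBgn0032130; 2L, 9568890 to 9573572, forward strand) held 2 weak regions. The summit at 9571009 was in the 5′ UTR, with a pooled signal of 103.53. The summit at 9572325 was in a coding exon, with a signal of 66.0, and was overlapped in replicates 1 and 3. Against 74.3 per Mb over the whole length outside promoter windows, there were 8 weak regions outside promoters within 10000 bp of the gene. They included 3 in introns of jp, the junctophilin gene, with signals of 78.6, 53.3 and 86.0, and 2 in coding exons of Mtpalpha, which encodes a mitochondrial trifunctional protein subunit, with 64.0 and 98.8. The last was in the 3′ UTR of CG31709, with a signal of 50.5 and a region in replicate 3 only. The place of the transgene insertion is not given in the labels. Reads from the transgene copy of CG3838 cannot be told apart here from those of the gene itself.

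Gene groups differed in density, measured as weak regions per 100000 bp outside promoter windows relative to the 8.37 of all protein-coding genes. The lists were chosen with earlier results of these data known, and no test is given for them. As longer genes are more often hosts, each share of hosts is set beside that of all protein-coding genes in the size class of the list's median length. Genes of signalling receptors had a ratio of 2.24, with 1.98, 2.38 and 2.16 in the replicates (mean 2.17 ± 0.197, SD, n = 3). Of 22 genes 15 held a weak region (68.2%), compared with 67% of all genes with 10000 to 20000 bp outside promoter windows. The density was 18.7 per 100000 bp in the list and 11.2 in that size class, and the median was 2 regions a gene against 0 over all protein-coding genes. The Wnt receptors fz2 and fz had 24 and 17 and the insulin receptor gene InR 15.

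Genes of the response to ecdysone, the steroid hormone of moulting, had a ratio of 2.22, with 1.81, 2.02 and 1.92 in the replicates (mean 1.92 ± 0.104, SD, n = 3). Of 17 genes 14 were hosts (82.4%), near the 77.6% of all genes with 20000 to 50000 bp, while the density was 18.6 per 100000 bp against 9.59, with a median of 5 regions a gene. Next to Eip75B, ftz-f1, an orphan nuclear receptor gene, had 18, and Eip63E, a cyclin-dependent kinase gene, had 16. Homeotic and segmentation genes had a ratio of 1.83, with 1.61, 1.74 and 1.43 in the replicates, and 24 of 34 were hosts (70.6%, against 45.7% of genes with 5000 to 10000 bp), with a median of 1. After hth came the Hox genes Antp, with 15, and Ubx, with 10. Chromatin and BTB regulators also had 1.83, with 1.48, 1.87 and 1.75 in the replicates, and 19 of 30 were hosts (63.3%, against 67% of genes with 10000 to 20000 bp), led by psq (15), lola (10) and tou (10). Genes of the cytoskeleton and cell adhesion had 1.55, with 1.13, 1.45 and 1.44 in the replicates. Of these 23 of 31 were hosts (74.2%, against 67%), and their density of 13 per 100000 bp was near the 11.2 of that size class. They were led by the spectraplakin gene shot (12), the polarity gene scrib (9) and the kinase gene msn (8).

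Lists of neuronal and muscle genes had densities below that of all protein-coding genes. Genes of ion channels and synaptic proteins had a ratio of 0.484, with 0.501, 0.447 and 0.485 in the replicates (mean 0.478 ± 0.0279, SD, n = 3), and 16 of 26 were hosts (61.5%, against 77.6% of genes with 20000 to 50000 bp). The scaffold gene dlg1 had 6 regions, the synapsin gene Syn 5 and the sodium channel gene NaCP60E 4. Genes of axon guidance and neuronal adhesion had 0.881, with 0.904, 0.894 and 0.871 in the replicates, and 26 of 31 were hosts (83.9%, against 77.6%), among them fz (17), Fas3 (13) and Sema1a (11). Muscle structure genes had 0.932, with 0.826, 0.995 and 0.798 in the replicates, and 15 of 21 were hosts (71.4%, against 67% of genes with 10000 to 20000 bp), including Mef2 (7), Zasp52 (7) and Msp300 (5).

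Short gene families had few weak regions, as did all genes with up to 2000 bp outside promoter windows. Of 73 ribosomal protein genes with length outside promoter windows, 7 were hosts (9.59%, against 5.44% of genes with up to 2000 bp), among them RpL23A and RpL34a with 1 each. Their ratio of 2.11 rests on these 7 regions, with 1.87, 1.46 and 2.72 in the replicates, since the genes have a median of 446 bp there. Cuticle protein genes had 7 hosts of 110 (6.36%, near the 5.44% of that size class). There were 2 regions each in Cpr47Ef and Cpr73D and 1 in Cpr50Ca, and the ratio was 0.833 (replicates 1.15, 0.810 and 0.743). Odorant and gustatory receptor genes had 5 hosts of 120 (4.17%, against the same 5.44%), Gr22f, Gr39a and Gr58b among them, and a ratio of 0.473. Their replicates gave 0.251, 0.0919 and 0.284, all below the pooled value.

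Coding regions were spread over many genes. In all, 1272 genes held a weak summit in coding sequence outside promoters, and 16 of them held 3 or more. The zinc finger and BTB gene lola had 5, with 7, 4 and 4 in the replicates. CG33978, Svil, bif, an actin-binding protein gene, and sbb had 4 each. For Svil the replicates had 5, 3 and 1 and for sbb 3, 4 and 1, with replicate 3 lowest in both. For bif they had 1, 5 and 2 and for CG33978 3, 4 and 4, with replicate 1 lowest in both. These genes were ranked after their values were seen.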

How the data were processed

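ChIP-seq peak lists of 3 biological replicates were used, on dm6. Per the deposited README texts, the authors called peaks and background regions for each replicate and for the pooled replicates against 1 control, and deposited the peaks passing their optimal IDR threshold. Each region carries a signal value and a −log10 q-value, both deposited as the authors' caller gave them. The signal has no stated scale, so it was used only to describe, rank and bin regions within a list, and replicates are compared by rank. For the aligner, the caller and the IDR threshold, names and settings were not given in the sources used here. Depth is unknown. The dm3 lists were not used.

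Regions of the pooled list absent from the thresholded list, with a summit over 500 bp from every TSS in Ensembl release 115 (transposable elements left out), were kept. Classes were assigned in the order coding exon, 5′ UTR, 3′ UTR, non-coding exon, intron and intergenic, and lengths were counted over the major arms, chromosome 4, X and Y outside promoter windows (119292141 bp, 86.7% of the arms). Each ratio is a share of summits over a share of length. Overlap required at least 1 bp. Sign-flip permutation tests over the 3 replicates were exact and two-sided. Intervals are exact at 95% and cover counting error only. The labels call the replicates biological, and p-values measure the spread between these samples.

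The members, gene lists and motifs were chosen with earlier results of these data known. Genes named by rule are the 10 hosts with most regions, the 10 densest hosts with at least 10000 bp, up to 3 genes of each list, the hosts or nearest genes of the 10 strongest regions, the 3 regions next to the threshold on the weak side and the 5 longest chains, and brwl. Sequences were chosen outside arm 2R and UTRs. One gene that the rule names is not reported here. Names outside it are the coding hosts, the dense windows, the genes without a region, the peaks just above the threshold and the aqz and pyd windows. The code was checked on simulated data. Python 3.11.15, numpy 2.4.6, pandas 2.3.3, scipy 1.17.1 and matplotlib 3.10.9 were used.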

Additional observations from a re-analysis of the deposited data

How the results depend on the processing

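Of 96 alternatives, 73 moved a value by less than the spread between replicates and 23 moved it further. None reversed a direction past its spread, and the cause was not tested. For coding exons, the 3′ UTR and the GC difference the spread was wide (0.405, 0.468 and 2.94 points), and no alternative exceeded it. A move within the spread does not show that these values are stable. The intron ratio of 1.21 was 1.30 in regions above the median signal and 1.32 in those overlapped in all 3 replicates. The intergenic ratio of 0.730 was 0.759 with a 250 bp TSS window, 0.781 without soft-masked bases and 0.757 without the Y, and its mean over replicates was 0.749 with all ranks below the strongest, the last 2 chosen after seeing the data, as were transposable element starts as TSSs and the other subsets of replicate regions. Support in all replicates, 41.7%, was 20.4% with summits within 100 bp, 21.9% with lists restricted to the pooled length, 63.1% above the median signal, and 50.1% to 65.3% when 1 replicate was left out. For values of the pooled regions, leaving out 1 replicate kept the pooled list and counted regions overlapped in both remaining replicates. By this filter the support share can only rise and the host share below can only fall, whichever replicate is left out. Clustering within 1000 bp, 21.7%, was 10.5% at 500 bp, 66.6% at 5000 bp and 15.8% above the median signal, and 20.8% to 22.4% with 1 replicate left out. Host genes, 21.7%, were 13.1% above the median signal, 11.3% with support in all 3, and 13.1% to 16.2% with 1 replicate left out. The share within 5000 bp of thresholded summits, 26.8%, was 5.90% at 1000 bp, 31.8% above the median signal, and 28.6% to 31.4% with 1 replicate left out. The mean replicate ratios with 1 replicate left out were 1.13 to 1.22 for introns, 0.716 to 0.731 for intergenic sequence, 0.866 to 1.27 for coding exons and 0.597 to 1.01 for the 3′ UTR, and the GC difference was -0.518 to 2.28. The coding exon ratio of 0.984 was 0.698 above the median signal, 0.656 with support in all 3 and 1.01 with introns placed before exons, and the GC difference of 0.604 was -0.250 above the median signal. Coding exon, 3′ UTR and GC values thus rest on which replicates are used, and unknown depth limits every replicate comparison. Coding exon and 3′ UTR values also rest on which replicate regions are counted. No paired analysis was possible because there is 1 group.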
